A study of Argopecten irradians with 2 samples.

Results

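GTPases of immunity-associated proteins (IMAP or GIMAP) are small GTP-binding proteins that share the AIG1 domain, a guanine nucleotide-binding domain named after a gene that Arabidopsis induces upon bacterial attack. In mammals they are found mainly in lymphocytes, sit on membranes of organelles and regulate the survival and development of these cells. Bivalves and gastropods carry many genes of this family, and several of them respond to infection. The IMAP transcripts described here are those of gills of the bay scallop Argopecten irradians, the filter-feeding organ of the animal, which is also a barrier to microbes and dissolved chemicals.

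In total, 24 of the 60308 unigenes (assembled transcripts) in the deposited tables belonged to the family. They were chosen by the words GTPase IMAP in the Swiss-Prot or Nr description of the best protein hit and by at least 10 reads in both libraries together, which 38391 unigenes reached. All 24 unigenes with these words had at least 10 reads, so the minimum left none out. The 3 members nearest to it were Unigene22113_All with 10 reads, Unigene17053_All with 14 reads and Unigene27569_All with 26.3 reads.

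The PA library came from gills of scallops exposed for 48 h to 80 mg/L palmitoleic acid (PA), a fatty acid used against harmful algae and dissolved in DMSO. The control library came from gills of scallops kept for 48 h with DMSO alone (0 mg/L PA). By the labels, each library was made from gills of 18 pooled scallops, which were bought at a fish market, while the study's methods describe 3 pools of 6. With 1 library per condition no difference has a replicate check, and the tests speak of these 2 libraries rather than of PA exposure in general. The expected counts of RSEM, called reads here, summed to 10414545 in the PA library and 10305482 in the control library. In such bulk tissue, fewer cells of a type and less RNA per cell cannot be told apart.

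The words were found in the Swiss-Prot column for all 24 members and in the Nr column for 21. The best Swiss-Prot hit was human GIMAP7 for 14 members, human GIMAP4 for 9 and mouse GIMAP8 for 1, with E-values between 1e-55 and 7e-08. Human GIMAP7 is known to stimulate GTP hydrolysis by a partner of the same family, GIMAP4 to promote death of T lymphocytes in mammals, and GIMAP8 to carry several G domains in tandem. The Interpro column named the AIG1 family or the AIG1-type G domain for 15 members, gave the IMAP protein family without a description for 8 and was empty for 1, CL1630.Contig3_All. No unigene outside the 24 members carried these entries. The best Nr hit was a protein of the Pacific oyster Crassostrea gigas for 13 members, of a fish for 9 and of a mammal for 2, and of a protist or a plant for none. No member had a GO entry. The members were 421 to 4519 bp long, with a median of 1229 bp against 846 bp over all unigenes with at least 10 reads.

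Calls went both ways within the family. Of the 24 members, 7 (29.2%) were called higher and 5 (20.8%) lower with PA, and 12 were not called. Calls required an FDR (Benjamini-Hochberg) no larger than 0.001 in the Audic-Claverie test, which compares the counts of a pair of libraries, together with a change of 2-fold or more. Over all unigenes with at least 10 reads, the same rule called 13.3% higher and 10.7% lower with the library totals, and 10% higher and 14.0% lower with TMM scaling, under which 6 members were higher and 5 lower. The share of calls depends on depth, and the median member had 39 reads in the PA library and 18 in the control library, against 28 and 24.6 for the median unigene. Among the 14 members with at least 50 reads, 6 were higher and 3 lower, where 19.9% and 15.5% of all such unigenes were called. By a fold change of at least 2 alone, without the test, 8 members (33.3%) were higher and 6 (25%) lower, where 27.3% and 19.0% of all unigenes were past it.

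Other thresholds and scalings left calls in both directions. With the median of ratios, 6 members were higher and 5 lower, against 10.4% and 13.7% of all unigenes. With an FDR of 0.05, 8 were higher and 6 lower, against 20.1% and 14.9%. With a 4-fold threshold, 6 were higher and 4 lower, against 6.97% and 6.11%. An edgeR exact test with a coefficient of variation between replicates assumed to be 0.2 called 5 higher and 4 lower, against 5.06% and 4.76%, and with 0.4 it called 3 higher and 2 lower, against 0.581% and 1.02%. The 7 higher and 5 lower calls also held in number with 0.1 FPKM added (background 13.2% and 10.6%), with 1 FPKM added (11.8% and 9.66%) and over all 60308 unigenes with no minimum of reads (8.45% and 6.81%).

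The middle of the family lay near that of all unigenes. The median log2 fold change (log2FC, PA FPKM over control FPKM) was 0.33 for the members, with quartiles of -0.96 and 1.95, and 0.21 for all unigenes, with quartiles of -0.66 and 1.13. With libraries of 3 reads or fewer set to 3 reads, the members' median was also 0.33. On that scale the median size of the change, regardless of direction, was 1.64 for the members and 0.91 for all unigenes. TMM scaling lowered every log2 fold change by 0.24, which put the members' median at 0.090 and that of all unigenes at -0.030.

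**Figure D1:**
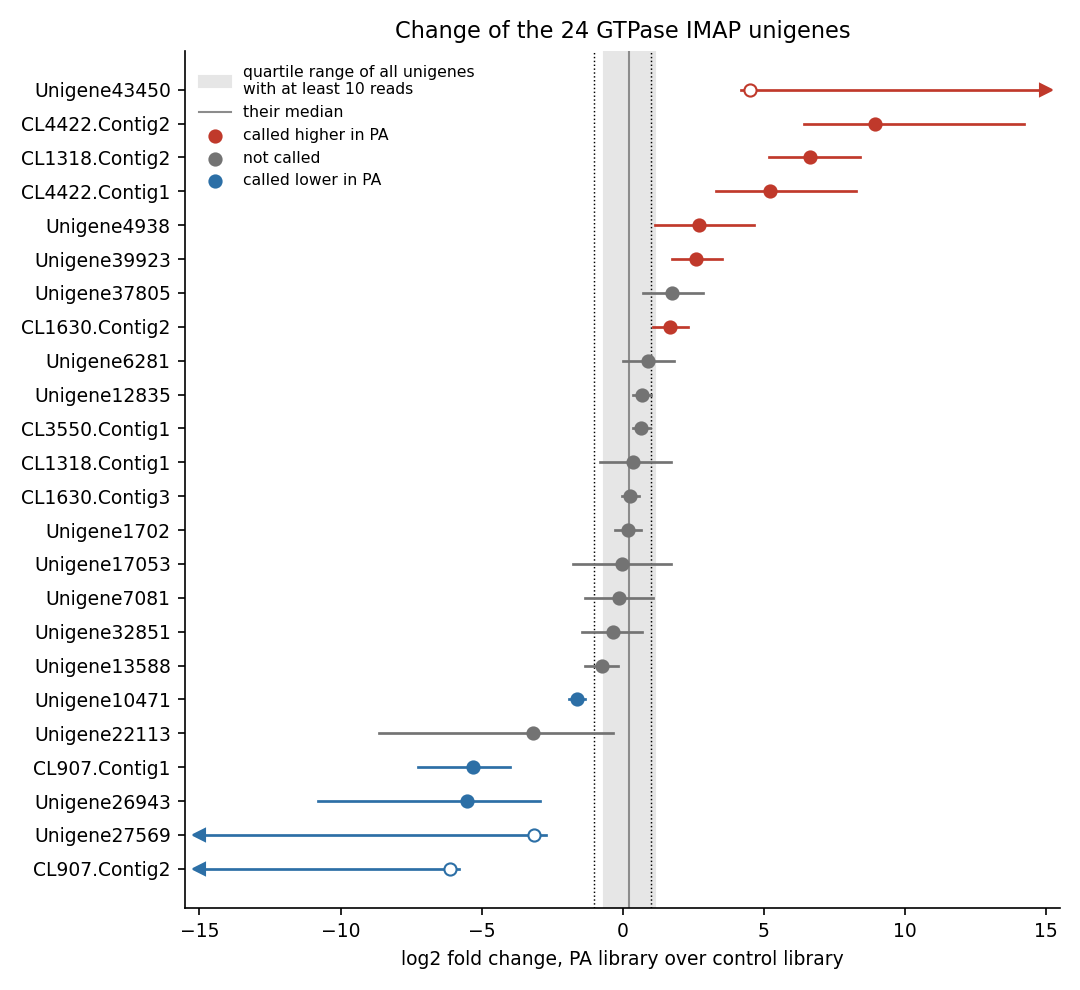
Log2 fold change of each of the 24 GTPase IMAP unigenes, PA library over control library (x axis), with its 95% Clopper-Pearson interval for counting error. Open symbols mark members with 0 reads in a library, placed with that 0 taken as 3 reads, and arrows mark intervals with no limit. Dotted lines stand at a 2-fold change, and the grey band spans the quartiles of all unigenes, -0.66 to 1.13. The points of the 7 members called higher lie right of this band and those of the 5 called lower lie left of it. A call requires a 2-fold change, so this position follows largely from the rule.

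The summed level of the family was higher in the PA library, and its direction changed with the members left out. The members held 2243 reads in the PA library and 1575 in the control library, which was 215 RPM (reads scaled by the library total, 95% exact interval 207 to 224) and 153 RPM (145 to 161). The log2 ratio of the sums was 0.50 (95% interval 0.40 to 0.59, counting error only). The 2 members with the most reads took 38.7% of the family's reads in the PA library, CL4422.Contig2_All and CL1318.Contig2_All, and 39.8% in the control library, Unigene10471_All and CL907.Contig2_All. Without CL4422.Contig2_All and CL1318.Contig2_All, which were picked out after their values were seen, the sums were 1375 reads in the PA library and 1570 in the control library, a log2 ratio of -0.21. Leaving out the leading pair of the control library instead gave 2103 reads in the PA library and 947 in the control library, a log2 ratio of 1.14. Each pair was chosen as the leading one of 1 library, which favours a move of the ratio in the direction seen. These moves therefore say little about the other members. Without both pairs, 1235 reads in the PA library stood against 943 in the control library, a log2 ratio of 0.37 (95% interval 0.25 to 0.50).

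The members with the highest level per length were different ones in each library. FPKM gives fragments per kilobase of unigene, scaled by the library's fragments. In the PA library, CL4422.Contig2_All led with an FPKM of 29.9, followed by CL1318.Contig2_All with 18.1 and CL4422.Contig1_All with 10.8. In the control library these 3 unigenes had an FPKM of 0.060, 0.18 and 0.29. Unigene10471_All, CL907.Contig2_All and CL907.Contig1_All had an FPKM of 3.46, 0 and 0.15 in the PA library, against 10.5, 7.27 and 5.93 in the control library, where they led the order. The median FPKM of a member was 3.49 in the PA library and 2.41 in the control library.

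**Figure D2:**
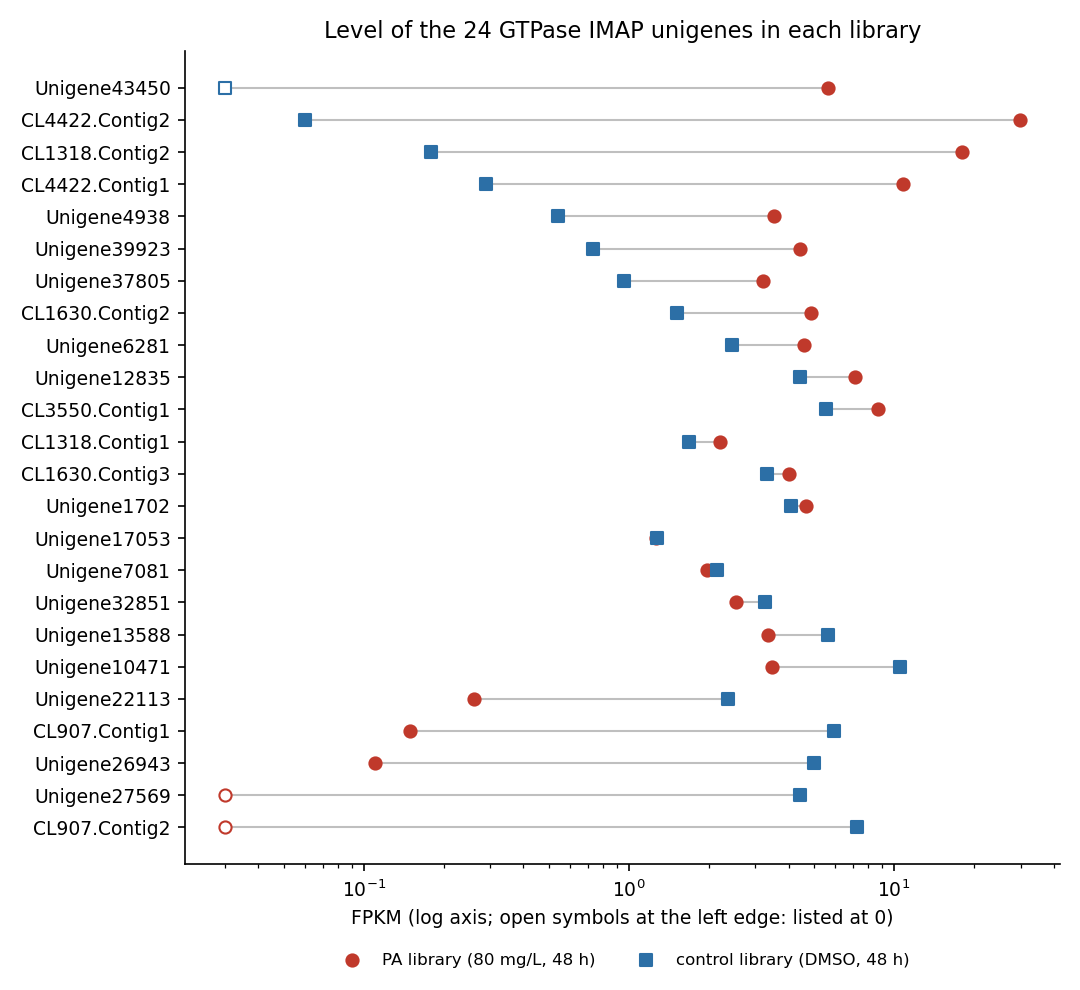
FPKM of each of the 24 GTPase IMAP unigenes in the PA library (red circles) and the control library (blue squares) on a log axis, ordered by log2 fold change. Open symbols at the left edge are unigenes listed at 0. The red points at the top reach 29.9 FPKM where the blue points lie at 0.29 or below, and at the bottom CL907.Contig2_All stands at 0 in the PA library and at 7.27 FPKM in the control library.

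The largest rises were found in contigs with few reads in the control library. CL4422.Contig2_All (1620 bp, best hit human GIMAP7) had 489 reads in the PA library and 1 read in the control library, with a log2FC of 8.96 (95% CI from 6.43 to 14.2, Audic-Claverie FDR 4.69e-142). CL4422.Contig1_All (716 bp) of the same cluster had 75 reads and 2 reads, with a log2FC of 5.22 (95% CI from 3.31 to 8.29). CL1318.Contig2_All (2058 bp, best hit human GIMAP4) had 379 reads in the PA library and 3.64 in the control library, with a log2FC of 6.65 (95% CI from 5.18 to 8.43, FDR 5.48e-104). CL4422.Contig1_All was not called in the edgeR exact test at an assumed coefficient of variation of 0.4. The intervals of these contigs share no value with the quartile range of all unigenes, which says little because the contigs are among the largest called rises.

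Unigene43450_All (1239 bp, best hit human GIMAP7) had 70 reads in the PA library (FPKM 5.65) and 0 in the control library. With that 0 taken as 3 reads it was 23.1-fold higher (95% CI of the log2FC from 4.19, Audic-Claverie FDR 4.12e-20). It was the only member listed at 0 in the control library.

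The best nucleotide hit of CL4422.Contig2_All was the manganese superoxide dismutase (MnSOD) gene of the bay scallop itself. MnSOD is a mitochondrial enzyme that removes superoxide, and it is unrelated to the IMAP GTPases. The same nucleotide hit was listed for 725 unigenes, of which 552 had no Nr hit and 0 had a superoxide dismutase as protein hit. Of the 571 among them with at least 10 reads, 57 (9.98%) were called higher and 114 (20.0%) lower, against 13.3% and 10.7% of all unigenes (10% and 14.0% with TMM scaling). CL4422.Contig2_All was the only IMAP member among them, and CL4422.Contig1_All, which was also called higher, had no nucleotide hit.

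The other members called higher had at least 4 reads in the control library. Unigene39923_All (1898 bp, best Nr hit a fish GIMAP8-like protein) had 85 reads in the PA library and 14 in the control library, with a log2FC of 2.59 (95% CI from 1.76 to 3.52, Audic-Claverie FDR 2.36e-12). Unigene4938_All (762 bp, also with a fish GIMAP8-like protein as best Nr hit) had 26 reads and 4 reads, with a log2FC of 2.70 (95% CI from 1.16 to 4.66, FDR 3.57e-04). It was not called with TMM scaling or the median of ratios. The edgeR exact test called neither Unigene4938_All nor CL1630.Contig2_All at a coefficient of variation of 0.2, and none of these members at 0.4. CL1630.Contig2_All (2037 bp, best Nr hit an oyster GTPase IMAP family member 4) had 100 reads and 31.2 reads, with a log2FC of 1.67 (95% CI from 1.08 to 2.31). Its call was lost with the 4-fold threshold. Both unigenes with a GIMAP8-like Nr hit were thus called higher, but their best Swiss-Prot hit was human GIMAP4. Unigene27569_All, whose best Swiss-Prot hit was mouse GIMAP8 (E-value 7e-08), had a mammalian GIMAP7 as best Nr hit and was called lower.

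The members called lower included the family's leading transcripts of the control library. Unigene10471_All (3920 bp, best hit human GIMAP7) had 140 reads in the PA library and 422 in the control library, with a log2FC of -1.61 (95% CI from -1.89 to -1.33, Audic-Claverie FDR 3.07e-33). Its call was lost with the 4-fold threshold and in the edgeR exact test at an assumed coefficient of variation of 0.2 or 0.4. CL907.Contig1_All (2723 bp, best hit human GIMAP4) had 4.12 reads in the PA library and 164 in the control library, with a log2FC of -5.30 (95% CI from -7.27 to -3.99). CL907.Contig2_All (2780 bp, best hit human GIMAP4) was listed at 0 in the PA library with 205 reads in the control library. With that 0 taken as 3 reads it was 69.1-fold lower (95% CI of the log2FC up to -5.80, FDR 3.19e-61).

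A pair of shorter singletons was also called lower. Unigene26943_All (903 bp, best hit human GIMAP7) had 1 read in the PA library and 44 in the control library, with a log2FC of -5.51 (95% CI from -10.8 to -2.92). Unigene27569_All (629 bp), the member with the weakest protein hit, had 0 reads in the PA library and 26.3 in the control library. With that 0 taken as 3 reads it was 8.85-fold lower (95% CI of the log2FC up to -2.73, Audic-Claverie FDR 1.05e-07). Both had an FPKM between 4.4 and 5 in the control library, above the median member there (2.41). Neither was called in the edgeR exact test at an assumed coefficient of variation of 0.4.

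Among the 12 members that were not called, 10 had a log2 fold change between -0.74 and 0.90. CL3550.Contig1_All (2571 bp, best Swiss-Prot hit human GIMAP4, best Nr hit a fish protein named for WD repeats) had 230 reads in the PA library and 144 in the control library, with a log2FC of 0.66 (95% CI from 0.35 to 0.97). Unigene12835_All (2781 bp) had 204 and 125 reads, with a log2FC of 0.69 (95% CI from 0.36 to 1.02). They were the only members to pass the FDR without a 2-fold change. CL1630.Contig3_All (4519 bp, the longest member) had 188 reads in the PA library and 153 in the control library, and Unigene1702_All (1924 bp) had 91 and 79 reads. Their intervals, -0.034 to 0.60 and -0.26 to 0.64, both held 0. Unigene13588_All (1219 bp) had 41 reads in the PA library and 68 in the control library, with a log2FC of -0.74 (95% CI from -1.34 to -0.17).

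For the members with few reads a 2-fold change was not always detectable at this depth. Unigene22113_All (421 bp) had 1 read in the PA library and 9 in the control library, with a 95% interval of -8.64 to -0.33 on the log2 scale. Unigene17053_All (579 bp) had 7 reads in each library, with an interval of -1.76 to 1.73. CL1318.Contig1_All (702 bp) had 15 reads in the PA library and 11.4 in the control library, with an interval of -0.79 to 1.70. Unigene37805_All (1155 bp), chosen here with its values in view, had 37 and 11 reads, with a log2FC of 1.74 (95% CI from 0.73 to 2.85), and missed the threshold with an Audic-Claverie FDR of 0.0012. The remaining members, also outside the rule for naming, were Unigene6281_All with 32 reads in the PA library and 17 in the control library, Unigene7081_All with 13 and 14 reads and Unigene32851_All with 15 and 19 reads, none of them called.

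Members with the same best protein hit held calls in both directions. The best Nr hit of 8 members was one and the same oyster protein, annotated as GTPase IMAP family member 7. Of these 8 unigenes, 3 were called higher (Unigene43450_All and both contigs of CL4422), 2 lower (Unigene10471_All and CL907.Contig1_All) and 3 were not called, with a median log2 fold change of 0.54, where 13.3% and 10.7% of all unigenes were called. The 14 members with human GIMAP7 as best Swiss-Prot hit held 4 higher and 2 lower calls. The 9 with human GIMAP4 held 3 higher and 2 lower. The 13 members with an oyster hit held 4 higher and 2 lower calls, and the 11 with a vertebrate hit held 3 of each. The 14 members of at least 1000 bp held 5 higher and 3 lower calls, where 21.7% and 16.3% of all unigenes of that length were called. The 10 shorter members held 2 of each, where 6.77% and 6.34% of all shorter unigenes were called.

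Of the members, 9 were contigs of 5 clusters and 15 were singletons. A cluster joins contigs of similar sequence, which may be splice forms, alleles or close gene copies, and the mapping can split reads among them. CL4422 and CL1318 had member contigs only and were higher as a whole. CL4422 had 564 reads in the PA library and 3 in the control library, with a log2FC of 7.54 (95% CI from 5.98 to 9.82), and CL1318 had 394 and 15 reads, with a log2FC of 4.70 (95% CI from 3.96 to 5.55). CL1318.Contig2_All made up 96.2% of the cluster's reads in the PA library and 24.3% in the control library, and CL1318.Contig1_All the rest.

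CL907 differed among its contigs. Its 2 IMAP contigs together had 4.12 reads in the PA library and 369 in the control library, with a log2FC of -6.50 (95% CI from -8.43 to -5.17). The contigs CL907.Contig3_All and CL907.Contig5_All, which had no protein hit, had 41.9 and 161 reads in the PA library against 24.6 and 96 in the control library. CL907.Contig4_All had 0 and 3 reads. The cluster as a whole had 207 reads in the PA library and 493 in the control library, with a log2FC of -1.27 (95% CI from -1.51 to -1.03), which is a smaller change but still past 2-fold.

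In the remaining clusters the whole changed less than 2-fold. CL1630 had 288 reads in the PA library and 191 in the control library over its 3 contigs, with a log2FC of 0.58 (95% CI from 0.31 to 0.85). The call of CL1630.Contig2_All was therefore lost when the contigs were summed. CL3550 had 282 reads in the PA library and 236 in the control library, with 81.5% and 61.1% of them on the IMAP contig. With the reads of all contigs of each cluster summed, 5 of the 20 clusters and singletons were called higher and 4 lower, where 10.9% and 7.79% of all clusters and singletons were called.

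**Figure D3:**
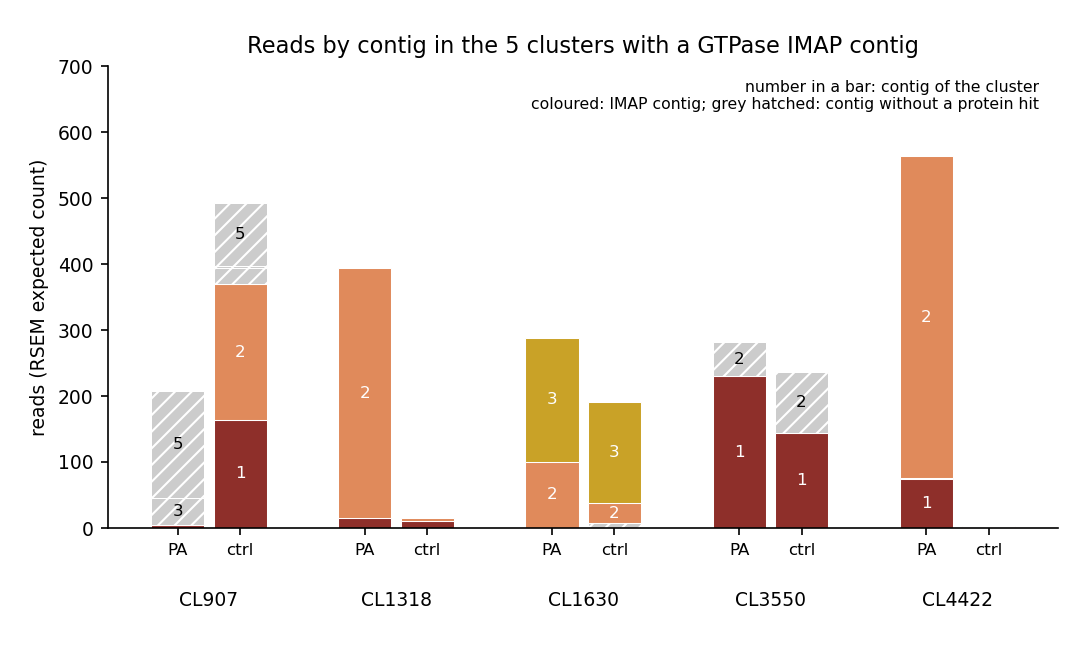
Reads (RSEM expected counts, y axis) in the PA and the control library for the 5 clusters that hold a GTPase IMAP contig, stacked by contig. Coloured parts are IMAP contigs and grey hatched parts are contigs without a protein hit. CL4422 and CL1318 hold 564 and 394 reads in the PA library and 3 and 15 in the control library, whereas the IMAP contigs of CL907 hold 4.12 reads in the PA library and 369 in the control library.

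RSEM divides a read that maps to several transcripts among them, so that expected counts need not be whole. Expected counts were whole numbers in both libraries for 15 members, while for 9 (37.5%, against 26.0% of all unigenes with at least 10 reads) at least 1 count was not whole. Of the 15 members with whole counts, 5 were called higher and 1, Unigene26943_All, lower, where 10.2% and 7.01% of all unigenes with whole counts were called. Of the 9 others, 2 were called higher and 4 lower, where 22.0% and 21.2% of all such unigenes were called. The part of read assignment in these calls was not tested.

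Other genes that act with or resemble the IMAP family were counted by words in the same annotation columns, and the unigenes named from these lists were picked after their values were seen. The list of interferon-induced and immunity-related GTPases covers names of proteins that vertebrates induce upon infection. Its name gives the words searched, and GTPase activity of the matched unigenes was not tested. All 18 unigenes of this list with at least 10 reads had an interferon-induced protein 44 or 44-like protein as hit, and none was matched through the other words (guanylate-binding protein, immunity-related GTPase or Mx). Of these 18 unigenes, 14 were called higher and 2 lower (12 and 2 with TMM scaling). Over all unigenes, 13.3% were called higher and 10.7% lower (10% and 14.0% with TMM scaling). Among all unigenes with at least 50 reads, which is nearer to the depth of most of this list, 19.9% and 15.5% were. The median log2 fold change of the list was 1.85 (1.61 with TMM scaling), against 0.21 (-0.030) over all unigenes. The 18 unigenes held 448 RPM in the PA library and 125 in the control library. The one with the most reads, Unigene14279_All (2111 bp), had 765 and 101 reads, with a log2FC of 2.91. Unigene25725_All of this list had 0 reads in the PA library and 123 in the control library, and CL266.Contig1_All had 119 and 0 reads. CL266.Contig2_All of the same cluster had 0 and 15 reads and was called lower. Several of the 18 unigenes were contigs that share a cluster (CL2036, CL620, CL151 and CL266), and they were not summed by cluster.

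Septins are GTP-binding proteins of the cytoskeleton whose G domain is related to that of the IMAP family. For the lists of this paragraph, the shares over all unigenes with at least 10 reads were 13.3% higher and 10.7% lower, with a median of 0.21. The share of calls depends on depth, and among all unigenes with at least 50 reads 19.9% were higher and 15.5% lower. Of the 11 unigenes matched by the word septin, 5 were called higher and 2 lower, with a median log2 fold change of 0.93. One of those called higher and counted here, Unigene21270_All, was matched by a septin-interacting protein and is no septin. In the cluster CL4760, Contig1 was called higher with 744 reads in the PA library and 137 in the control library. Contig2 of CL4760 was called lower with 90.4 and 385 reads. Mammalian GIMAP proteins have been tied to the Bcl-2 family, which controls cell death at mitochondria, and to the Atg8 family, which marks autophagosomes. Of 11 unigenes matched by the Bcl-2 words, 1 was called higher and 3 lower (median -0.59). Of these, 4 were Bax inhibitor or lifeguard proteins, which are not Bcl-2 proteins, with 1 higher call (CL3323.Contig1_All) and 1 lower (CL1500.Contig2_All). The other 7 held 0 higher and 2 lower calls. Contigs of a cluster parted here. CL1500.Contig2_All had 7.09 reads in the PA library and 299 in the control library, and CL1500.Contig1_All 2646 and 1497. CL3545.Contig1_All, called lower, had 836 and 2109 reads, and CL3545.Contig2_All 4711 and 2414. CL3323.Contig1_All had 2819 and 1106 reads, and CL3323.Contig2_All 2664 and 3962. Of 6 Atg8 unigenes, 0 were called higher and 2 lower (median -0.91). With TMM scaling or the median of ratios 4 of these 6 were lower, where 14.0% and 13.7% of all unigenes were. CL1638.Contig1_All, called lower, had 3465 reads in the PA library and 8469 in the control library, but CL1638.Contig2_All of the same cluster had 9497 and 4843. The other lower call, CL257.Contig3_All, had 1465 and 2929 reads. Contigs of these lists were not summed by cluster, so the calls do not give the change of a whole cluster. Of 60 Rab GTPases, which direct vesicle traffic, 6 were called higher and 16 lower (median -0.30). No unigene of these lists was a member of the IMAP family.

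**Figure D4:**
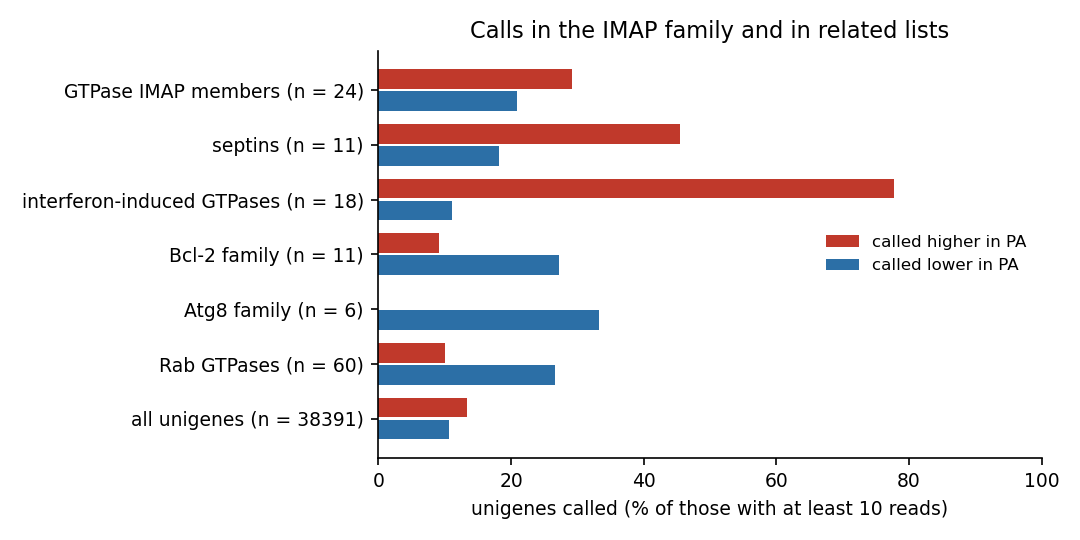
Share of unigenes called higher (red) and lower (blue) in the PA library among those with at least 10 reads, for the IMAP members, the related lists and all unigenes. The IMAP members stand at 29.2% higher and 20.8% lower, the interferon-induced list at 77.8% and 11.1%, and all unigenes at 13.3% and 10.7%. The lists are not matched for depth, and among all unigenes with at least 50 reads 19.9% were called higher and 15.5% lower.

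Words for cell types of the gill were counted in the same way, beside 13.3% higher and 10.7% lower over all unigenes (10% and 14.0% with TMM scaling) and a median log2FC of 0.21. These shares are not matched for depth, and among all unigenes with at least 50 reads they were 19.9% and 15.5%. Of 79 unigenes named for ciliary parts (tektins, axonemal dynein heavy chains and radial spoke proteins), 20 were called higher and 0 lower in the Audic-Claverie test, and with TMM scaling 14 and 1, with a median log2FC of 1.42 (1.18 with TMM scaling). They summed to 1600 RPM in the PA library and 705 in the control library, and 0 and 1 of them were listed at 0. The 10 unigenes with words for hemocytes (integrin alpha, transglutaminase, lysozyme, hemocytin or hemolectin) held 0 higher and 2 lower calls (median -0.61, and -0.86 with TMM scaling) and summed to 61.0 RPM in the PA library and 119 in the control library, and 0 of them were listed at 0 in either. Muscle words had 6 of 29 unigenes called higher and 5 lower (4 and 6 with TMM scaling, median 0.47), with 824 and 682 RPM, and 1 and 0 of them listed at 0. Mucin words had 57 of 197 called higher and 33 lower (median 0.18, and -0.068 with TMM scaling), with 4423 and 4063 RPM, and 6 and 7 listed at 0. The hemocyte words are no agreed markers of bay scallop hemocytes. The part of cell composition in the IMAP values was not tested.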

How the data were processed

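Read filtering used SOAPnuke, assembly Trinity 2.0.6, clustering into unigenes TGICL, mapping Bowtie 2.2.5 and quantification RSEM 1.2.12, all by the authors. The authors deposited an expected count and an FPKM value per unigene for each library, with unigene lengths in bp and other annotation. Their own comparison (fold changes, p-values, FDR and 2 expression columns) was not used.

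Log2 fold changes are ratios of FPKM, PA over control, where 0.01 replaced 0. A unigene not listed for one library counted as 0 reads there. The Audic-Claverie test, named in the study's methods, was run two-sided on counts rounded to whole numbers, adjusted over all 60308 unigenes. It was tested on simulated counts with no variation between pools and with changes only in unigenes with many reads. That simulation does not cover variation between pools or changes of members with few reads. Intervals are 95% Clopper-Pearson intervals of the PA share of reads, for counting error only.

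The members and lists were chosen with earlier results of these data known. Members named are the 12 with the most reads, the largest called changes (up to 8 each way), other member contigs of their clusters and the 3 nearest the minimum. Others are said to be picked afterwards. Sequences of the unigenes were not used here. Python 3.11.15, scipy 1.17.1, pandas 2.3.3, matplotlib 3.10.9, R 4.3.3 and edgeR 4.0.16 were used.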

Additional observations from a re-analysis of the deposited data

How the results depend on the processing

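The numbers of members called higher (7) and lower (5) stayed within 1.5 times under TMM scaling, the median of ratios, both pseudocounts (0.1 and 1 FPKM), no minimum of reads, an FDR of 0.05, a 4-fold threshold, the 2-fold change alone, an edgeR exact test at a biological coefficient of variation (BCV) assumed to be 0.2, summed contigs, the words in Swiss-Prot or in Nr alone and AIG1 named in Interpro. With a BCV of 0.4, 3 members were called higher and 2 lower, where 0.581% and 1.02% of all unigenes were called. With at least 50 reads or at least 1000 bp, 3 members were called lower, and among members with whole counts, an alternative chosen after seeing the data, 1 was, with fewer members in each case. The median log2 fold change ranged from 0.090 with TMM scaling to 0.69 among members with whole counts. No named member changed direction after being called. Unigene4938_All lost its call with TMM scaling (2.46) and the median of ratios (2.48), and CL1630.Contig2_All with its cluster summed (0.58). With the 4-fold threshold, CL1630.Contig2_All (1.67) and Unigene10471_All (-1.61) were not called. With a BCV of 0.2, Unigene4938_All, CL1630.Contig2_All and Unigene10471_All were not called, and with 0.4 CL4422.Contig1_All, Unigene39923_All, Unigene26943_All and Unigene27569_All were lost as well. The log2 ratio of the summed reads was -0.21 without the leading pair of the PA library, 1.14 without that of the control library and 0.37 without both, all chosen after seeing the data. No paired analysis was possible because each condition has 1 library, which also leaves no replicate to leave out.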
